A study of Mus musculus with 12 samples.

Results

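The aminoacyl-tRNA synthetases of mouse neural stem cells (NSCs) were followed through 3 doses of folic acid, in total mRNA and in mRNA bound to polysomes. The 39 genes were chosen by symbol, out of 43432 gene identifiers listed in each library, and all 39 were found and passed the filter on low counts. They comprised 20 genes for cytosolic enzymes, 16 for mitochondrial enzymes and 3 for scaffold proteins of the multisynthetase complex (Aimp1, Aimp2 and Eef1e1). The rule uses symbols and no measured value. The methionine enzyme of the cytosol, Mars1, is listed under its older symbol Mars in the annotation.

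The cells were wild-type NSCs from the subventricular zone of adult male C57BL/6 mice of 6 to 8 weeks, grown for 4 days in folic acid at low (LF, 1.5 µM), medium (MF, 10 µM) or high dose (HF, 80 µM), with MF as the control. Total mRNA and polysome mRNA were each sequenced in 2 libraries a dose, 12 in all. The labels call the duplicates biological without naming separate animals or cultures, so p-values cover only the spread between libraries. For polysome mRNA, cycloheximide was used to hold ribosomes in place, and gradient fractions with more than 3 ribosomes per mRNA were pooled, so mRNAs with fewer ribosomes lie outside that pool. Library totals were 24193468 to 28170296 expected counts for polysome mRNA and 20506797 to 23593252 for total mRNA. A smaller share of cells with an mRNA and less of it per cell cannot be told apart in such bulk libraries. The stem cell markers Nes and Sox2 were detected in all 12 libraries, at 57.67 to 156.41 TPM (transcript share of a library, a level per length) for Nes in polysome mRNA and 357.01 to 469.09 TPM in total mRNA. The 10 stem cell markers summed to 7225 to 8987 TPM in polysome mRNA and 6724 to 8508 TPM in total mRNA. The 5 microglial markers summed to at most 13.53 TPM and the 4 endothelial markers to at most 1.95 TPM, whereas 7 mural and mesenchymal markers reached 657.58 TPM in polysome mRNA and 429.96 TPM in total mRNA, with Rgs5 and Col1a1 under 1 TPM throughout. Neuronal markers, 6 genes, summed to 50.39 to 99.7 TPM in polysome mRNA and 152.3 to 167.82 TPM in total mRNA. The part of such cells in the results was not tested.

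Each aminoacyl-tRNA synthetase joins an amino acid to its matching tRNA, the step at which the genetic code is read into amino acids. Mammalian cells keep separate sets of enzymes for the cytosol and for the mitochondrion, all encoded in the nucleus, and the mitochondrial enzymes charge the tRNAs used to make respiratory chain proteins. Gars and Kars each encode both forms from a single gene, for glycine and lysine, and the mitochondrial glutamine tRNA is charged by an indirect route, so that Qars has no separate counterpart. In the cytosol, 8 of the enzymes (Dars, Eprs, Iars, Kars, Lars, Mars1, Qars and Rars) are held in the multisynthetase complex by Aimp1, Aimp2 and Eef1e1. Eprs carries the activities for both glutamate and proline, and phenylalanine is charged by an enzyme of 2 kinds of subunit, Farsa and Farsb. Many cytosolic synthetase genes are known targets of Atf4, a transcription factor of the amino acid response, which binds a C/EBP-ATF element.

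The core letters of that element, TGATGNAA on either strand, were searched in RefSeq promoter windows from 250 bases before to 50 bases after the gene start (GRCm38.p6). Windows were at hand for 30 of the 39 genes. The motif was present in 5 of 13 cytosolic windows (38.46%), in 0 of 14 mitochondrial windows and in 0 of 3 scaffold windows, against 1219 of 27025 windows over all genes (4.51%). A match from each of these 5 windows is printed with 30 bases because among the 30 windows the matches were in cytosolic genes only, though the other 8 cytosolic windows held none. The matched letters are in capitals.
Aars, chr8:111033840-111033869, plus strand: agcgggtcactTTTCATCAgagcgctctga
Gars, chr6:55037960-55037989, plus strand: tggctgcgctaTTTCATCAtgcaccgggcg
Iars, chr13:49682126-49682155, plus strand: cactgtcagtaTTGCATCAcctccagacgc
Tars, chr15:11399655-11399684, minus strand: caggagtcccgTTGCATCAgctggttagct
Yars, chr4:129189895-129189924, plus strand: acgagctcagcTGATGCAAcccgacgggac
Among the matches printed, the motif read forward along the gene in Yars, and its reverse complement did in Aars, Gars, Iars and Tars. A second motif, the letters GCGCA, any base and GCGC on either strand, the core of the site of NRF1, a regulator of nuclear genes for mitochondrial proteins, was in 3 of 13 cytosolic, 2 of 14 mitochondrial and 1 of 3 scaffold windows, against 5.19% of all windows. It is shown for the mitochondrial genes Iars2 and Mars2.
Iars2, chr1:185329374-185329403, minus strand: ccgccccggaGCGCGTGCGCagttcctcgc
Mars2, chr1:55237169-55237198, plus strand: ccgtccagctGCGCACGCGCcctttcccgt
A match is a description of letters and not evidence of binding, and no binding was measured.

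Levels per length set the classes apart. In polysome mRNA, the 20 cytosolic genes summed to 4930 ± 1017 TPM, and in total mRNA to 1672 ± 22.1 TPM (SD, n = 6 libraries each, all doses). The 16 mitochondrial genes summed to 271 ± 17.1 TPM in polysome mRNA and 262 ± 5.64 TPM in total mRNA. The 3 scaffold genes summed to 521 ± 85.4 TPM in polysome mRNA and 221 ± 7.72 TPM in total mRNA. The summed level of the cytosolic class in polysome libraries, 3534 to 6545 TPM, lay wholly above its range in total libraries, 1650 to 1705 TPM. In polysome mRNA the highest members were Gars (632.7 ± 106 TPM), Sars (586.8 ± 171 TPM), Nars (498.3 ± 119 TPM) and Rars (434.4 ± 151 TPM). The SDs of these neighbours overlap across doses. Nars lay above Rars in all 6 polysome libraries. In total mRNA the order was another. Dars (205 ± 6.07 TPM), the aspartate enzyme, Kars (139.2 ± 4.53 TPM) and Sars (132.4 ± 3.01 TPM), the serine enzyme, led, and Gars stood in place 9 with 86.2 ± 0.662 TPM. Mars2, the mitochondrial methionine enzyme, was the lowest in both fractions, with 1.17 ± 0.168 TPM in polysome mRNA and 3.19 ± 0.393 TPM in total mRNA. Its smallest rounded count in a library was 206, so that depth did not limit its detection. The smallest count of any member was 57, for Aars2, the mitochondrial alanine enzyme.

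The first question was how far each mRNA was represented on polysomes relative to its share of total mRNA. Averaged over the 3 doses, 19 of 20 cytosolic genes were higher in polysome than in total mRNA and none was lower. All 3 scaffold genes were higher. Of 16 mitochondrial genes, 7 were higher, 2 were lower and 7 did not pass the test. Over all 14421 genes tested, 32.7% were called higher and 38.4% lower. A call needed a fold change of more than 1.2 and an adjusted p below 0.05, from the quasi-likelihood test of edgeR with Benjamini-Hochberg adjustment over all genes tested. The median log2 fold change of the cytosolic genes was 1.80, that of the scaffold genes 1.45 and that of the mitochondrial genes 0.23, against -0.09 over all genes tested. The mitochondrial median was 0.08 without the first LF polysome library and 0.34 without the second. Since each library is scaled to its own content, these are changes in relative representation. Cycloheximide, scraping and freezing are described for the polysome cultures only. A different mRNA content of those cultures cannot be told apart from polysome loading.

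**Figure D1:**
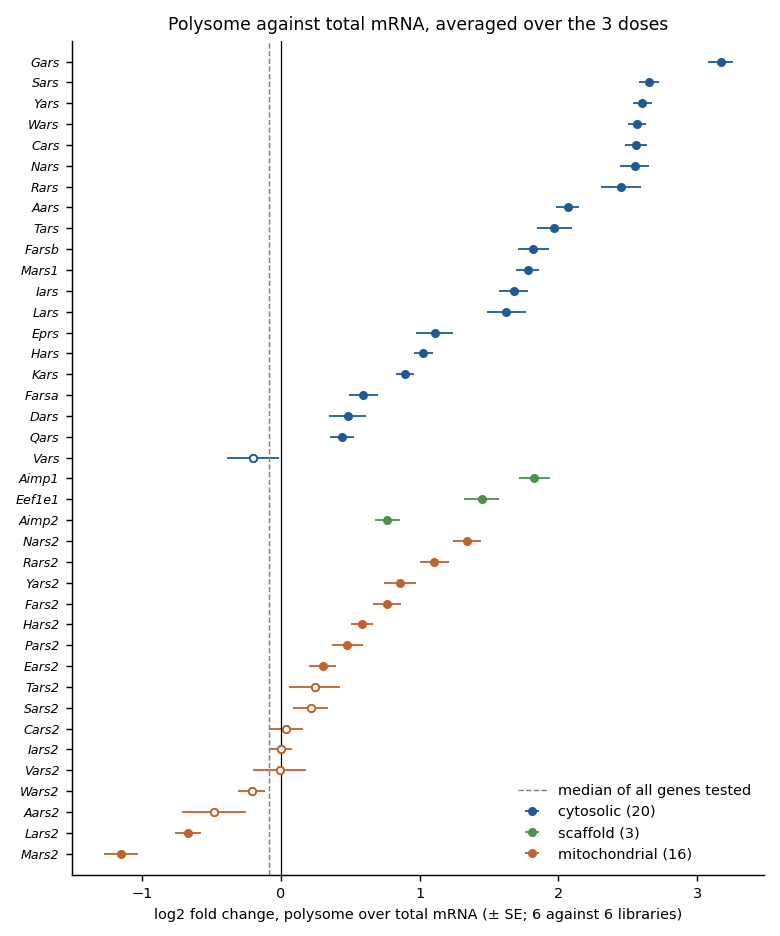
Log2 fold change of polysome over total mRNA for the 39 genes, averaged over 3 doses, with standard errors (6 polysome against 6 total libraries). Filled points passed the test and open points did not, and the dashed line is the median of all genes tested. Cytosolic genes run from -0.20 (Vars) to 3.17 (Gars), and mitochondrial genes from -1.15 (Mars2) to 1.34 (Nars2).

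Gars, which joins glycine to its tRNA in both compartments, had the largest change of the 39 genes. It had 482.18 and 611.69 TPM in LF polysome, 599.88 and 616.5 TPM in MF polysome and 682.31 and 803.84 TPM in HF polysome libraries, against 85.18 to 87.14 TPM in the 6 total libraries. The fractions did not overlap, and the fold was 8.98 (log2 3.17 ± 0.09 SE, edgeR adjusted p = 3.37e-09). Kars, the other enzyme of both compartments, had 186.65 to 238.55 TPM in polysome and 130.78 to 142.63 TPM in total libraries, a log2 change of 0.90 ± 0.07 (edgeR adjusted p = 6.22e-07). An annotated pseudogene of Kars, Kars-ps1, leaves its counts uncertain to the extent that reads fit both.

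Sars had 368.91 and 402.61 TPM in LF, 640.56 and 609.49 TPM in MF and 687.55 and 811.9 TPM in HF polysome libraries, against 126.84 to 135.43 TPM in total libraries. Its log2 change was 2.65 ± 0.07. Yars, for tyrosine, Wars, for tryptophan, Cars, for cysteine, and Nars, for asparagine, followed with 2.60 ± 0.07, 2.56 ± 0.07, 2.56 ± 0.08 and 2.55 ± 0.10. Within their standard errors these 4 cannot be ordered. The smallest changes among the cytosolic genes that passed were those of Qars (0.44 ± 0.09) and Dars (0.48 ± 0.13). Vars, the valine enzyme, had 13.2 to 50.27 TPM in polysome and 54.76 to 77.51 TPM in total libraries and did not pass in the scaled counts (log2 -0.20 ± 0.19, edgeR adjusted p = 0.351). Without the first LF polysome library, Vars and Aars2 were called lower as well, which brought the count of lower members to 4 (40.8% of all genes lower in that fit).

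**Figure D2:**
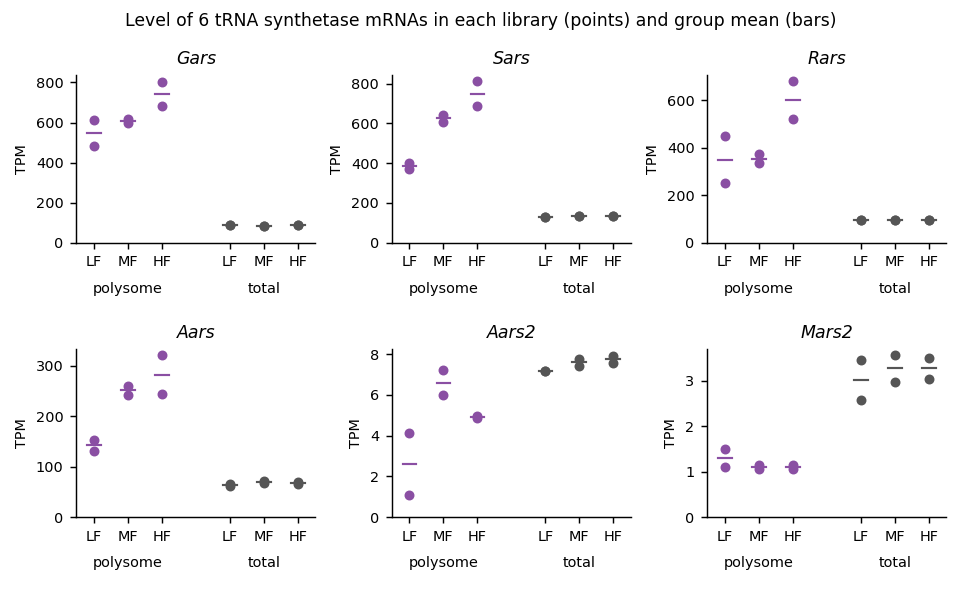
Level in TPM (vertical axis, starting at 0) of 6 genes in each of the 12 libraries, with polysome libraries to the left of total libraries and doses from LF to HF. Points are libraries and bars are means of 2. Gars, Sars, Rars and Aars lie higher in polysome than in total libraries at each dose, and Mars2 lies lower, at 1.05 to 1.5 against 2.57 to 3.58 TPM.

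Both subunits of the phenylalanine enzyme were measured. Farsb had 197.5 to 347.26 TPM in polysome and 90.08 to 98.76 TPM in total libraries (log2 1.82 ± 0.11). Farsa had 50.3 to 98.5 TPM in polysome and 59.3 to 65.78 TPM in total libraries (log2 0.59 ± 0.10). The difference between the subunits was not tested, and their intervals of 1 SE lie apart.

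The scaffold proteins moved in the same direction by different amounts. Aimp1 had 226.43 to 335.27 TPM in polysome and 92.78 to 101.44 TPM in total libraries (log2 1.83 ± 0.11, edgeR adjusted p = 1.96e-07). Eef1e1 had 145.27 to 291.36 TPM in polysome and 76.26 to 93.63 TPM in total libraries (log2 1.45 ± 0.12, edgeR adjusted p = 2.10e-06). Aimp2 had 41.2 to 67.61 TPM in polysome and 38.98 to 44.24 TPM in total libraries (log2 0.77 ± 0.09, edgeR adjusted p = 2.21e-05). The gene of Aimp2 overlaps Eif2ak1 on the other strand, and the strand setting of the counting is not given in the sources used here. The same limit holds for Mars1 with Ddit3, Hars with Hars2, Wars with Wdr25, Aimp1 with Tbck and Cars2 with Naxd. It also holds for other members, among them Farsb with Sgpp2, Yars with C77080, Ears2 with Ubfd1, Fars2 with Lyrm4 and Iars2 with Rab3gap2.

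The 8 cytosolic enzymes held in the complex had a median log2 change of 1.37, between 0.44 (Qars) and 2.45 (Rars). The 12 cytosolic enzymes outside it had a median of 2.31, between -0.20 (Vars) and 3.17 (Gars). The ranges overlap, and this grouping was made after the values were seen.

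Among mitochondrial enzymes, Nars2 (log2 1.34 ± 0.10), Rars2 (1.11 ± 0.10), Yars2 (0.86 ± 0.11), Fars2 (0.77 ± 0.10), Hars2 (0.58 ± 0.08) and Pars2 (0.48 ± 0.11) were the 6 with the largest rise, with edgeR adjusted p between 7.04e-07 for Nars2 and 0.00289 for Pars2. Ears2 passed as well (0.30 ± 0.10). The 2 that fell were Mars2 (-1.15 ± 0.12, edgeR adjusted p = 1.10e-05) and Lars2, the leucine enzyme (-0.67 ± 0.10, edgeR adjusted p = 9.35e-05). Lars2 had 17.12 to 22.09 TPM in polysome libraries, against 33.18 to 45.89 TPM in total libraries, with no overlap. Every polysome library lay above every total library, in CPM (counts scaled to library size), for 18 of 20 cytosolic, 3 of 3 scaffold and 5 of 16 mitochondrial genes, and every polysome library lay below for 2 mitochondrial genes. Over all genes tested those shares were 22.8% above and 29.5% below.

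For 13 amino acids with a single cytosolic and a single mitochondrial gene among the 39, the counterparts were set side by side. Threonine has a further cytosolic gene, Tarsl2, outside the 39. The cytosolic gene had the larger log2 change in 12 of 13 pairs, and the median difference, cytosolic minus mitochondrial, was 1.74. The widest pair was Mars1 and Mars2, with 1.78 against -1.15 on the log2 scale. Next came Wars and Wars2, with 2.56 against -0.21, Aars and Aars2, with 2.07 against -0.48, and Cars and Cars2, with 2.56 against 0.04. In all 4 pairs the mitochondrial counterpart did not rise. Sars and Sars2 gave 2.65 against 0.22 and Lars and Lars2 gave 1.63 against -0.67. Yars and Yars2 gave 2.60 against 0.86, Tars and Tars2 gave 1.97 against 0.24, and Iars and Iars2 gave 1.68 against 0.00. In Rars and Rars2 (2.45 against 1.11), Nars and Nars2 (2.55 against 1.34) and Hars and Hars2 (1.03 against 0.58) both members rose. Vars and Vars2 were the exception in direction, with -0.20 against -0.01, and neither passed. Eprs, with 1.11, stood beside Ears2 with 0.30 and Pars2 with 0.48. Fars2, with 0.77, lay between Farsa and Farsb. In TPM the cytosolic gene of a pair was 1.19 to 17.3 times its counterpart in total mRNA, with a median of 3.17, and 4.18 to 155 times in polysome mRNA, with a median of 9.79.

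The contrast was present at each dose. Polysome over total mRNA was called higher for 18 of 20 cytosolic genes at LF, where 25.0% of all genes were called higher, for 18 at MF (26.0%) and for 19 at HF (25.7%), and for all 3 scaffold genes at each dose. Of the mitochondrial genes, 5 were higher and 3 lower at LF, 8 higher and 2 lower at MF, and 6 higher and 2 lower at HF, with 28.5%, 29.3% and 30.7% of all genes called lower in the same order. Vars was not called at any dose, and Farsa at LF and Dars at MF did not pass. With a library left out, 21 to 27 of the 39 were called higher at LF, 23 to 32 at MF and 23 to 29 at HF. Of the higher calls, 7 at LF (Aimp2, Dars, Eprs, Fars2, Hars2, Qars and Rars2), 6 at MF (Ears2, Hars2, Pars2, Qars, Sars2 and Yars2) and 5 at HF (Dars, Farsa, Pars2, Qars and Yars2) were lost in at least 1 alternative. Over the doses no call was lost. Gars was the largest change at every dose, with log2 2.96 ± 0.15 at LF, 3.14 ± 0.15 at MF and 3.40 ± 0.16 at HF. The SEs at each dose use a spread estimated over all 12 libraries, and do not show the spread of a single dose. After Gars, the largest cytosolic changes were those of Yars, Nars and Cars at LF (2.33, 2.26 and 2.201), of Sars, Cars and Yars at MF (2.79, 2.74 and 2.65) and of Wars, Sars and Rars at HF (3.13, 3.04 and 2.95). Kars had 0.81 ± 0.11 at LF, 0.91 ± 0.11 at MF and 0.97 ± 0.11 at HF. Aimp1 had 1.84, 1.68 and 1.96 at LF, MF and HF, Eef1e1 had 1.89, 1.21 and 1.24, and Aimp2 had 0.47, 0.88 and 0.95. Mars2 and Lars2 were called lower at every dose, with -0.91 and -0.61 at LF, -1.26 and -0.63 at MF and -1.28 and -0.76 at HF. The calls of both at LF and of Lars2 at MF were each lost in 2 alternatives. Aars2 was called lower at LF only (-1.19 ± 0.41, edgeR adjusted p = 0.0315). This call was lost in 7 alternatives, with an edgeR adjusted p of 0.206 with the LF libraries alone in the fit, the highest over the alternatives, and of 7.07e-08 without the first LF polysome library, the lowest. With only the LF libraries in the fit no member was called lower at LF (13.4% of all genes), and without the first LF polysome library 8 were (37.6% of all genes). Nars2 was the largest mitochondrial rise at each dose, with 1.48 at LF, 1.16 at MF and 1.38 at HF.

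The median log2 ratio of polysome to total CPM, with 0.5 CPM added to each, was taken per dose and replicate number as a description. For the cytosolic genes it was 1.31 and 1.67 at LF, 1.83 and 1.76 at MF and 1.86 and 2.201 at HF. For the mitochondrial genes it was 0.23 and -0.17 at LF, 0.45 and 0.47 at MF and 0.24 and 0.11 at HF. For the scaffold genes it was 1.46 and 2.08 at LF, 1.27 and 1.13 at MF and 1.25 and 1.21 at HF. Over all genes tested it lay between -0.19 and -0.01. The cytosolic medians of both LF replicate numbers lay below those of both at MF, and those of both at HF lay above them. The nearest values of HF and MF were 1.86 and 1.83. The mitochondrial medians at LF and at HF all lay below those at MF. Replicate numbers do not pair the libraries, and the order of the doses was not tested. In TPM the median of all genes shifted to -0.33, that of the cytosolic genes was 1.49 and that of the mitochondrial genes turned to -0.08.

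**Figure D3:**
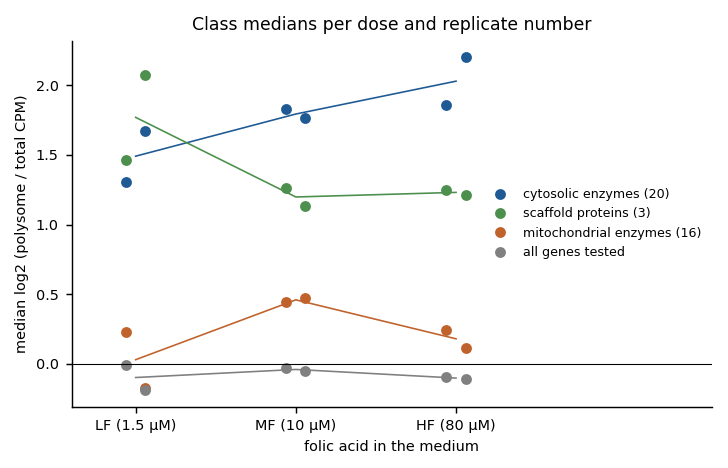
Median log2 ratio of polysome to total CPM (vertical axis) of each class at LF, MF and HF (horizontal axis). Points are the 2 replicate numbers of a dose, lines join their means, and grey marks all genes tested. The cytosolic means were 1.49, 1.79 and 2.03, the mitochondrial means 0.03, 0.46 and 0.18, and the scaffold means 1.77, 1.198 and 1.23.

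The second question was whether the dose of folic acid changed these mRNAs. In total mRNA none of the 39 passed the thresholds used. For LF against MF, edgeR called 0 of 39, and 3 had an unadjusted p under 0.05, where 6.27% of all 13912 genes did. Among all genes 0.00719% were called higher and 0.0% lower. For HF against MF, edgeR again called 0 of 39, with 2 at an unadjusted p under 0.05 (6.98% of all genes), while 0.0288% of all genes were called higher and 0.0575% lower. DESeq2 and limma voom called 0 of 39 in each comparison. The log2 changes of the members lay between -0.18 and 0.16 at LF and between -0.18 and 0.23 at HF. The widest at LF by p were Iars (-0.13 ± 0.05), Vars (-0.13 ± 0.06) and Aars (-0.10 ± 0.05) among cytosolic genes and Vars2 (-0.18 ± 0.09), Rars2 (0.16 ± 0.08) and Yars2 (-0.14 ± 0.11) among mitochondrial genes. At HF they were Farsb (0.11 ± 0.05), Tars (0.10 ± 0.06) and Hars (0.09 ± 0.06), and Iars2 (0.09 ± 0.05), Rars2 (0.12 ± 0.08) and Pars2 (-0.18 ± 0.13). Gars differed by 0.03 ± 0.05 at LF and 0.03 ± 0.05 at HF, and Kars by -0.05 ± 0.05 at LF and -0.01 ± 0.05 at HF. Eef1e1 had the smallest p at HF, with 93.63 and 91.02 TPM in HF libraries, against 79.04 and 79.61 TPM in MF libraries (log2 0.23 ± 0.07, edgeR adjusted p = 0.321). Its groups did not overlap, and the difference did not pass over all genes. Aimp1 had 0.05 ± 0.07 at LF and 0.07 ± 0.07 at HF, and Aimp2 had -0.07 ± 0.09 at LF and -0.11 ± 0.09 at HF.

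In polysome mRNA the changes were wider and so was the spread. The biological coefficient of variation was 0.231 in polysome and 0.0433 in total libraries. The second LF polysome library stood apart from the other 5 polysome libraries, at 79.7 on the first principal component, against -33.7 to -3.8 for the others. The replicates of LF polysome differed by a chi-square of 134.7 per degree of freedom, against 2.70 to 22.4 for the other 5 groups, so that no pair of libraries agreed within sampling noise. Within LF polysome, the difference between the libraries, second minus first, ran with the GC content of the transcript over the 39 genes (Pearson r = -0.84, a description over genes that share both libraries) and over 12976 protein-coding genes (r = -0.78). The part of this in the results was not tested. The class medians for LF against MF are given with both libraries and with each left out.

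At LF against MF, edgeR called 0 of 39 in polysome mRNA, where 0.0% of 13433 genes were called higher and 0.0223% lower. At an unadjusted p under 0.05 stood 7 cytosolic, 2 mitochondrial and 1 scaffold gene, 10 of 39, against 17.3% of all genes. Of the cytosolic genes, 18 of 20 had a negative log2 change, with a median of -0.31, and of the mitochondrial genes 9 of 16, with a median of -0.28, against 6606 of 13433 and a median of 0.01 over all genes. Without the first LF library 13 of 20 cytosolic genes were negative with a median of -0.18, and 9 of 16 mitochondrial genes with a median of -0.44. Without the second all 20 cytosolic genes were negative with a median of -0.50, and 12 of 16 mitochondrial genes with a median of -0.10. Both of these class medians were thus negative in each setting, and the settings differed in which class was lower. The scaffold median was 0.19 with both LF libraries, 0.51 without the first and -0.17 without the second. In CPM, both LF libraries lay below both MF libraries for 10 of 20 cytosolic, 9 of 16 mitochondrial and 1 of 3 scaffold genes (23.8% of all genes). Both lay above for 0 cytosolic, 4 mitochondrial and 1 scaffold gene (24.7% of all genes).

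Aars, which charges the alanine tRNA, had the smallest p. It had 580.91 and 525.64 CPM in LF libraries, against 1045.16 and 936.13 CPM in MF libraries (log2 -0.85 ± 0.19, edgeR adjusted p = 0.140). Sars had 537.27 and 591.64 CPM in LF libraries, against 946.83 and 886.28 CPM in MF libraries (-0.71 ± 0.16, edgeR adjusted p = 0.152). Mars1 had 221.9 and 213.9 CPM in LF libraries, against 384.49 and 324.58 CPM in MF libraries (-0.71 ± 0.19, edgeR adjusted p = 0.175). In all 3 the LF libraries lay close to each other and below both MF libraries. Vars had 97.69 and 36.93 CPM in LF libraries, against 140.36 and 135.85 CPM in MF libraries, and here the LF libraries themselves lay far apart.

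Among mitochondrial genes, Sars2 had 7.77 and 4.79 CPM in LF libraries, against 13.34 and 14.62 CPM in MF libraries (-1.16 ± 0.31, edgeR adjusted p = 0.176). Aars2 had 8.99 and 2.46 CPM in LF libraries, against 13.7 and 15.88 CPM in MF libraries (-1.37 ± 0.52, edgeR adjusted p = 0.256). Cars2 had 13.62 and 8.64 CPM in LF libraries, against 17.15 and 16.89 CPM in MF libraries. Each of these 3 was lower in the second LF library than in the first. Eef1e1 went the other way, with 94.15 and 164.49 CPM in LF libraries, against 84.27 and 78.66 CPM in MF libraries (0.65 ± 0.27, edgeR adjusted p = 0.276). Aimp2 had -0.49 ± 0.23 and Aimp1 0.19 ± 0.24, and the estimate for Aimp1 turned to -0.17 without the second LF library. Gars had -0.17 ± 0.19, between -0.38 and 0.05 with a library left out, and Kars -0.16 ± 0.17, between -0.22 and -0.08.

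The count of calls depended on the LF libraries. Without the second, which left 1 LF library assumed to vary like the other groups, edgeR called 8 members lower (Aars, Cars, Eprs, Lars, Mars1, Sars, Sars2 and Tars) and 0 higher, with 4.18% of all genes lower and 2.65% higher. Without the first, 16 were lower and 5 higher (Aimp1, Dars, Eef1e1, Farsb and Rars2), with 26.7% of all genes lower and 23.8% higher. Both settings rest on 1 LF library and share the MF libraries. Over all libraries left out in turn, the log2 change lay between -0.93 and -0.76 for Aars and between -0.77 and -0.63 for Sars. It lay between -0.59 and -0.42 for Cars, -0.83 and -0.57 for Mars1 and -1.54 and -0.85 for Sars2. The sign changed in 12 of the 39 members. DESeq2 on all libraries called Aars, Sars and Sars2 lower (3.34% of all genes), and limma voom called 0. Without a filter on low counts edgeR called 2 members lower, Aars and Sars (1.98% of all genes).

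At HF against MF, edgeR called 0 of 39 in polysome mRNA and 0.0% of all genes in either direction. The spread was estimated over all 6 polysome libraries, so these SEs and p-values take in the spread of the LF libraries. At an unadjusted p under 0.05 stood 3 of 39, all cytosolic, against 3.37% of all genes. Of the cytosolic genes 16 of 20 had a positive log2 change, with a median of 0.23, and of the mitochondrial genes 5 of 16, with a median of -0.09. The median over all genes was 0.00. Both HF libraries lay above both MF libraries for 12 of 20 cytosolic, 4 of 16 mitochondrial and 2 of 3 scaffold genes (25.4% of all genes), and below for 1 cytosolic and 7 mitochondrial genes (27.0%). The comparisons of LF and of HF share the MF libraries.

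Wars had 790.38 and 861.23 CPM in HF libraries, against 513.62 and 563.22 CPM in MF libraries (0.62 ± 0.16, edgeR adjusted p = 0.948). Rars, for arginine, had 696.84 and 907.48 CPM in HF libraries, against 454.48 and 489.89 CPM in MF libraries (0.76 ± 0.29, edgeR adjusted p = 0.948). Farsb had 367.59 and 423.36 CPM in HF libraries, against 260.9 and 275.52 CPM in MF libraries (0.56 ± 0.24, edgeR adjusted p = 0.948). These 3 were separated without overlap and were called higher when the LF libraries were left out of the fit (2.24% of all genes called higher). Gars differed by 0.30 ± 0.19, Kars by 0.06 ± 0.17, Aimp1 by 0.36 ± 0.24, Eef1e1 by 0.27 ± 0.27 and Aimp2 by -0.03 ± 0.23. The mitochondrial genes with the smallest p were Sars2 (-0.57 ± 0.31), Cars2 (-0.52 ± 0.30) and Rars2 (0.40 ± 0.24).

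**Figure D4:**
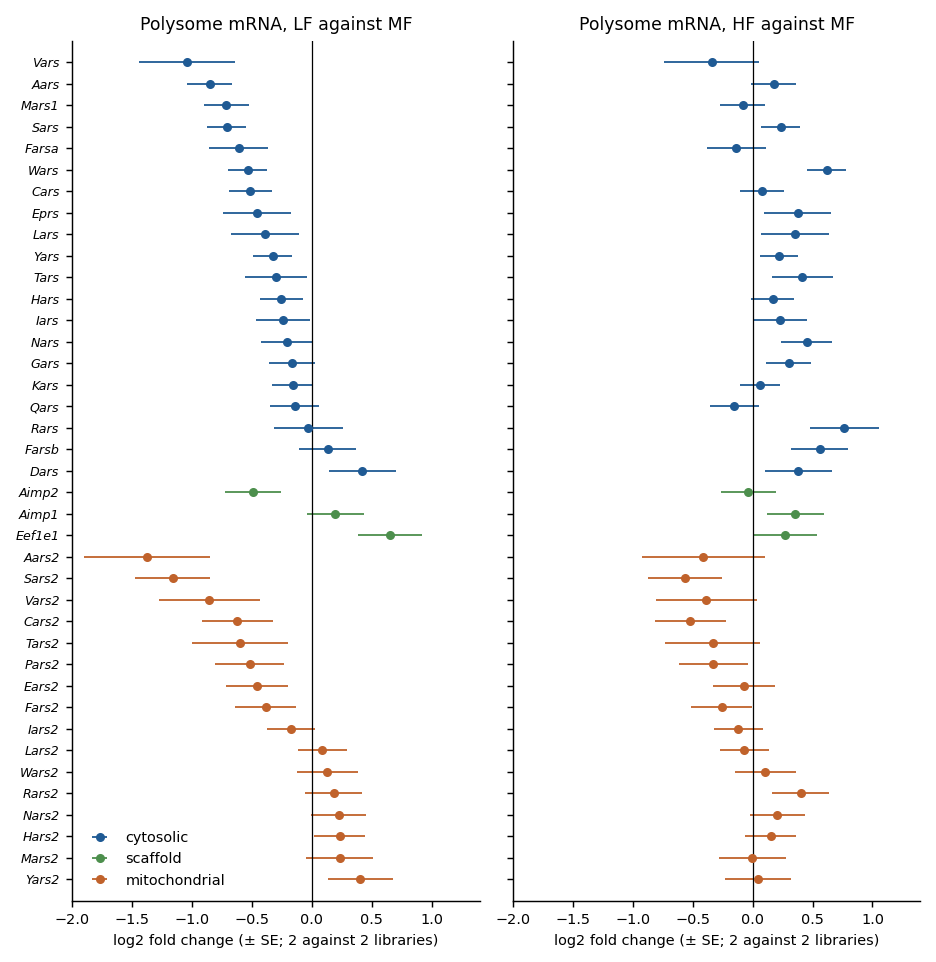
Log2 fold change in polysome mRNA of LF against MF (left) and of HF against MF (right) for each of the 39 genes, 2 against 2 libraries in each panel. Standard errors in both panels use a spread estimated over all 6 polysome libraries. None passed the test over all genes. Cytosolic medians were -0.31 at LF and 0.23 at HF, and both panels share the MF libraries.

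Translation efficiency (TE), the polysome to total ratio, was compared between doses as an interaction over all 12 libraries. At LF against MF edgeR called 0 of 39, where 0.0347% of 14421 genes were called higher and 0.201% lower, and 9 of 39 had an unadjusted p under 0.05 (15.8% of all genes). The median log2 change was -0.31 in cytosolic and -0.28 in mitochondrial genes, against 0.02 over all genes. It was -0.17 and -0.46 without the first LF polysome library, and -0.43 and -0.13 without the second, in cytosolic and mitochondrial genes in that order. The scaffold median was 0.16 with both, 0.45 without the first and -0.21 without the second. Sars (-0.67 ± 0.16, edgeR adjusted p = 0.125), Aars (-0.74 ± 0.20) and Mars1 (-0.71 ± 0.19) had the smallest p of the cytosolic genes, and Sars2 (-1.13 ± 0.31), Aars2 (-1.30 ± 0.57) and Yars2 (0.55 ± 0.28) those of the mitochondrial genes. With a library left out, the TE change of Aars2 lay between -2.53 and -0.66. Gars had -0.18 ± 0.20, Kars -0.11 ± 0.16, Eef1e1 0.68 ± 0.30, Aimp1 0.16 ± 0.26 and Aimp2 -0.41 ± 0.22. DESeq2 called Aars, Mars1, Sars and Sars2 lower (3.02% of all genes) and limma voom none. Without the second LF polysome library 10 members were called lower (4.03% of all genes) and 0 higher. Without the first 16 were lower (24.8% of all genes) and 4 higher (21.3%). Each setting rests on 1 LF polysome library, and both share all other libraries. The overlap of their calls was not tested against that of all genes.

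At HF against MF edgeR called 0 of 39 for TE and 0.0% of all genes, and 1 of 39 had an unadjusted p under 0.05 (4.15% of all genes). That gene was Wars (0.60 ± 0.15, edgeR adjusted p = 0.847), which DESeq2 called higher (0.173% of all genes), and limma voom called none. Rars (0.71 ± 0.34) and Farsb (0.44 ± 0.27) came next among cytosolic genes, and Sars2 (-0.62 ± 0.30), Cars2 (-0.57 ± 0.29) and Iars2 (-0.22 ± 0.19) had the smallest p among mitochondrial genes. Wars and Rars were called higher with only the MF and HF libraries in the fit (0.66% of all genes). The cytosolic median was 0.22 and the mitochondrial -0.14, against 0.00 over all genes. Gars had 0.26 ± 0.20, Kars 0.06 ± 0.16, Aimp1 0.28 ± 0.26, Aimp2 0.07 ± 0.22 and Eef1e1 0.03 ± 0.30.

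Within the 39 genes the change in TE ran with the GC content of the transcripts, the median over the coding transcripts of a gene. At LF against MF, Pearson's r was -0.83 and Spearman's rho -0.84 over the 39 genes, and r was -0.78 in the 20 cytosolic and -0.88 in the 16 mitochondrial genes, against -0.51 over 12976 protein-coding genes. At HF against MF r was -0.65 over the 39 genes and -0.33 over all. These are descriptions over genes that share libraries. Vars (60.80% GC), Sars2 (60.06%) and Aars2 (59.99%) were at the upper end and had the most negative changes at LF, and Eef1e1 (44.10%) and Dars (44.34%) at the lower end had positive changes. The polysome over total change averaged over the doses had r = -0.20 with GC content in the 39 genes and 0.22 over all genes. When a smooth trend on GC content over all genes was removed from the LF change in polysome mRNA, an alternative added after the data were seen, 19 of 20 cytosolic genes were negative with a median of -0.35, and 11 of 16 mitochondrial genes with a median of -0.18. For HF in polysome mRNA the cytosolic median was 0.22 after removal, with 1 of 20 genes negative. For TE the mitochondrial median moved to -0.10 at LF and -0.064 at HF, against -0.28 and -0.14 before removal, and the cytosolic median was -0.36 at LF and 0.22 at HF.

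**Figure D5:**
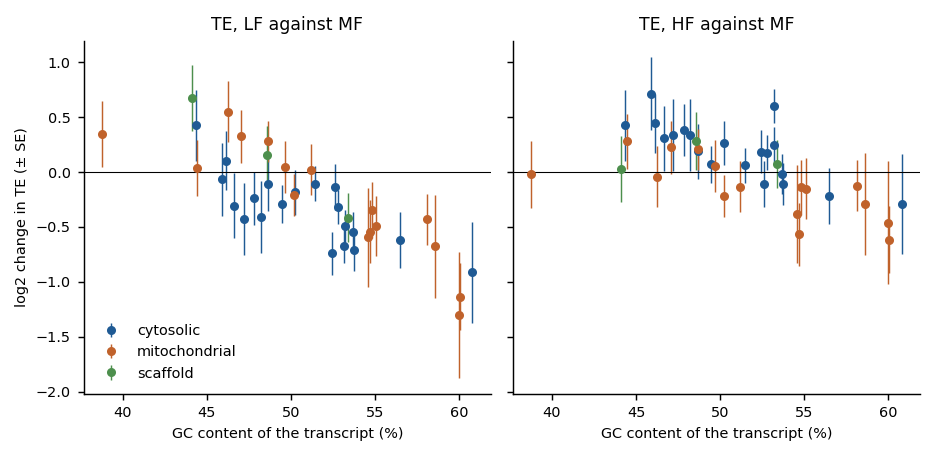
Change in TE (log2, with standard errors, vertical axis) against GC content of the transcript in percent (horizontal axis) for the 39 genes, LF against MF on the left and HF against MF on the right. Genes with more GC had the more negative values, with r = -0.83 at LF and -0.65 at HF, and no single gene passed the test.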

How the data were processed

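The authors trimmed read pairs, aligned them with Bowtie2 2.2.9 to mm10 and assigned them with RSEM 1.3.0 (submitters' processing notes). The deposited expected counts are estimates that divide pairs fitting several genes, with 4.04% to 5.95% of values not whole. The TPM and FPKM deposited beside them come from the same run. FPKM was not used, nor was the effective length, an other measurement. The strand setting is not given in the sources used here.

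Expected counts were rounded and tested with edgeR 4.0.16 (R 4.3.3; filterByExpr, TMM, robust quasi-likelihood, Benjamini-Hochberg), in the 6 total, the 6 polysome or all 12 libraries. The SE is the absolute log2 fold change over the root of F. Each fit gave a gene 1 estimate of the spread, shared by all groups in that fit. DESeq2 1.42.0 and limma 3.58.1 gave alternatives. The fits were tested on simulated data. Of 43432 identifiers, 42462 matched GENCODE M21, which gave symbols, coding lengths and transcripts for GC content. Counts are read pairs without molecular identifiers.

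Values are given for members called, at most the 6 largest changes per class and direction, or the 3 with the smallest p where fewer than 3 were called, for Gars, Kars and the scaffold genes in each comparison, and for counterpart pairs. Farsa, Qars, Dars and Vars are also named. The members, lists, tests and alternatives were chosen with earlier results of these data known.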

Additional observations from a re-analysis of the deposited data

How the results depend on the processing

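Alternatives were DESeq2 size factors in edgeR, DESeq2, limma voom, no filter on low counts, only the libraries compared, a replicate block and leaving out each library. Counts of members called stayed within 1.5 times the main count in 111 of 118 comparisons with another setting and in 176 of 192 with a library left out. These totals take in the comparisons of doses, where the main count was 0 in both directions and staying means 0 again. With DESeq2, 3 members were called lower in polysome mRNA and 4 in TE at LF against MF, and 1 higher in TE at HF against MF. Without a filter, 2 members were called lower in polysome mRNA at LF against MF (1.98% of all genes). With only the libraries compared, 3 were called higher in polysome mRNA and 2 in TE at HF against MF, and 0 lower in polysome against total mRNA at LF. Leaving out a library gave 0 to 5 members higher and 0 to 16 lower in polysome mRNA at LF against MF, and 0 to 4 higher and 0 to 16 lower in TE. At HF against MF it left the polysome log2 change between 0.55 and 0.69 for Wars, 0.57 and 0.94 for Rars and 0.46 and 0.65 for Farsb. For polysome against total mRNA it gave 1 to 8 lower at LF, 1 to 2 at MF and 2 to 4 over the doses, and 29 to 31 higher over the doses. The highest counts in the comparisons of doses and at LF came from leaving out an LF polysome library, and the cause was not tested. The mitochondrial median ratio was 0.22 and turned to -0.08 in TPM, and lay between 0.17 and 0.30 with a replicate number left out. The cytosolic median, 1.77, lay between 1.49 and 1.86 over all alternatives. With a library left out, 10 to 16 of the 39 members changed sign in each comparison of doses, and 0 to 7 in polysome against total mRNA, none of them where called in the main test. Among the scaffold genes these were Aimp1 at LF against MF (-0.002 to 0.10 in total mRNA, -0.17 to 0.51 in polysome mRNA and -0.21 to 0.45 in TE), Eef1e1 (-0.063 to 0.032 in total mRNA at LF and -0.018 to 0.083 in TE at HF) and Aimp2 at HF (-0.152 to 0.093 in polysome mRNA and -0.05 to 0.21 in TE). Removing the GC trend turned the scaffold median of TE at LF to -0.009. The replicate numbers did not pair the libraries: replicate differences correlated between -0.14 and 0.14 across groups. With a replicate block, edgeR called 0 members in each comparison of doses, and 29 higher and 2 lower in polysome against total mRNA over the doses. Depth did not limit detection. The 2 libraries a group and their spread bore on the precision, and in total mRNA some members with low counts had a larger SE. At LF against MF the SE there was 0.124 for Pars2 (lowest count 172) and 0.044 for Eprs (lowest count 4734). The part of depth in the precision was not tested.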

Other observations

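Genes around the synthetases were counted from lists set beside them. Of 16 tRNA charging partners tested, 12 were higher in polysome than in total mRNA over the doses (32.7% of all genes) and 1 was lower (38.4%), with a median log2 change of 0.82. The 3 with the smallest p were Xpot, which exports tRNA from the nucleus (1.59 ± 0.10), Dtd1, which removes D-amino acids from tRNA (1.39 ± 0.10), and Pstk, a kinase on the way to selenocysteine tRNA (1.32 ± 0.10). The member called lower was Tarsl2, a second threonyl-tRNA synthetase of the cytosol (-0.78 ± 0.10), which is named outside the rule for named genes. All 4 genes of the EF1 complex, which brings charged tRNA to the ribosome, were higher, with a median of 0.70 and the largest change in Eef1d (1.303 ± 0.08). None of these 20 genes was called by edgeR in a comparison of doses.

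Of 24 genes of the Atf4 and amino acid response outside the synthetases, 24 were higher in polysome than in total mRNA over the doses, where 32.7% of all genes were, with a median log2 change of 3.01, against 1.80 for the cytosolic synthetases and -0.09 for all genes. Those with the smallest p were Trib3, a pseudokinase (7.70 ± 0.15), Slc3a2, the heavy chain of amino acid transporters (3.78 ± 0.07), and Pycr1, of proline synthesis (3.63 ± 0.08). In polysome mRNA at LF against MF, 22 of the 24 had a negative change (6606 of 13433 over all genes), with a median of -0.55, and at HF against MF 3 of the 24 (6710 of 13433), with a median of 0.24; the 2 comparisons share the MF libraries, and edgeR called none of the 24 in either. The lists overlap in no gene with the 39. Cytosolic synthetases of structural class I and class II, 10 genes each, a grouping made after the values were seen, had median polysome over total changes of 1.73 and 1.90. At LF against MF in polysome mRNA, all 10 of class I and 8 of 10 of class II had a negative change (49.2% of all genes). With a library left out, the change in class I reached 0.017 for Iars, 0.023 for Qars and 0.37 for Rars. These LF counts and those of the 24 genes rest on both LF polysome libraries, which differed as described above. They were not taken with either left out.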
